A study of Bos taurus with 12 samples.

Results

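The S100 calcium binding proteins were described in the endometrium of cycling cows on Day 15 (D15). Of the 10 members followed (S100A1, S100A2, S100A4, S100A6, S100A8, S100A9, S100A10, S100A11, S100A12 and S100A14), 9 were measured, through 12 of the 26323 transcripts of a custom bovine Agilent array. They were found by the gene symbol that the array annotation gives each probe. No probe could be matched to S100A6, which was not analysed here. Total RNA of each cow was hybridized in 1 colour (Cy-3) to its own array, and the replicate is the animal.

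The study compared endometrium of old females (OF, n = 4, labelled Old cows, 13 to 14 years, nulliparous) with that of young females (YF, n = 4, labelled Young cows, 4 to 5 years, primiparous). All OF and YF were Holstein somatic clones of 1 donor cow, so they stand for 1 nuclear genotype, and age and parity cannot be told apart. A further group, labelled Contemporary cows, held 4 animals whose age, parity and genotype are not given in the sources used here. 1 of them, cow 1111, had been excluded by the authors according to its label, so 3 were used. The OF and YF had been synchronised, and their biopsies were taken on the side of the corpus luteum.

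S100 proteins are small proteins that bind calcium through a pair of EF-hand loops and mostly act as dimers. S100A8 and S100A9 together form calprotectin, an antimicrobial complex that withholds zinc and manganese from microbes and is stored in the cytosol of neutrophils, and S100A12 (calgranulin C) is another granulocyte protein of this kind. In the uterus, granulocyte S100 proteins are known as signs of neutrophils in the endometrium. Other members work mainly inside epithelial, stromal or muscle cells, where they bind annexins, myosin or calcium pumps.

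The probes below show what the array reads of 4 of the members, each as a 60-base sequence of the transcript strand, written 5′ to 3′. Capitals mark the codons of the EF-hand loop in S100A9 and S100A12, the loop without its first codon in S100A4, and the stop codon of S100A8.

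S100A8: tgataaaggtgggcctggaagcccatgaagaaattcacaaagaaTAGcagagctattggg

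S100A9: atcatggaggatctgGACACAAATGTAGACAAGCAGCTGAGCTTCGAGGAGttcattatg

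S100A12: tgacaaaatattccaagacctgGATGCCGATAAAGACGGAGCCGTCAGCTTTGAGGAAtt

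S100A4: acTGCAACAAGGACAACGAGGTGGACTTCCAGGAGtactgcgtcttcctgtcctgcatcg

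The loop was searched in the 3 sense frames without a stop codon, as 12 residues with aspartate at the first and the fifth position, aspartate or asparagine at the third and glutamate at the last. It was found whole in 16 of the 50968 different probe sequences (0.0314%), 2 of them among the 24 of the members. The S100A8 probe covers the end of the coding sequence and 13 bases after the stop codon. These 4 probes were well above background on all 12 arrays, with mean processed intensities of 280 for S100A8, 380 for S100A9, 1350 for S100A12 and 10700 for S100A4.

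All members measured lie on chromosome 3 (assembly UMD3.1, as the array annotation gives it), in 3 blocks. S100A1, S100A14, S100A2 and S100A4 lie within chr3:16812602-16888570, over 76 kb. S100A8, S100A12 and S100A9 lie within chr3:17146918-17179005, over 32.1 kb. S100A11 and S100A10 lie within chr3:18768796-18810545, over 41.7 kb.

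Levels are given as log2 of the processed intensity minus the 75th percentile of the array, so 1 unit is a 2-fold difference and 0 is the 75th percentile itself. Levels of different genes come from different probes and were not compared with each other. The share of probes well above background ran from 71.6% to 74.9% per array. Of the marker genes with a probe, 11 of 11 epithelial, 10 of 10 stromal and 6 of 7 endometrial genes were well above background on all 12 arrays. OF 2258 stood apart on the first principal component, which held 40.8% of the variance, at 110.3 against -34.2 to 29.9 in the other 10 cows, and its smooth muscle marker level was 4.09 above the mean of all cows, against 2.46 in OF 0234 and at most 0.12 in the others. Several results that rest on OF 2258 are therefore also given without it. Differences of whole gene lists between groups include it throughout.

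No member passed the test in any of the 3 comparisons (limma with Benjamini-Hochberg adjustment over all transcripts tested, at an adjusted p of 0.05). The share of all transcripts that passed was 0% in each of OF against YF, Contemporary cows against YF and Contemporary cows against OF, out of 19755, 19993 and 19914 transcripts tested. At an unadjusted p of 0.05 or less, 478, 606 and 911 transcripts were counted in the same order, and none was the transcript that stands for a member (the brightest of each gene). With 4 animals against 4 the smallest two-sided p of an exact permutation test is 0.0286, and with 3 against 4 it is 0.0571. The fold change rank ordering statistics (FCROS), the method named by the study, were coded here from their description. They called 4.94%, 4.23% and 5.4% of the 26323 transcripts, and among the 9 members 1 in OF against YF (S100A2), 1 in Contemporary cows against YF (S100A12) and 0 in Contemporary cows against OF. In OF against YF they called 1300 transcripts, more than the differentially expressed genes that the study counted, so these calls are not those of the study.

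The granulocyte members differed more between cows of a group than between groups. S100A8, the smaller calprotectin subunit, had levels of -2.28, -0.99, -2.34 and -1.95 in YF 1069, 1070, 1072 and 1127. In OF 0233, 0234, 0245 and 2258 it had levels of -0.23, -1.49, -2.73 and -2.09, and in Contemporary cows 1068, 1128 and 1129 of -1.04, -2.43 and -0.78. The highest cow and the lowest cow were both OF, 5.65-fold apart, and the groups overlapped. In cultured glandular epithelial cells, the study reported by RT-qPCR an effect of ageing on S100A8. It was seen at both incubation times, without and with interferon tau, the pregnancy signal of ruminants. Those values are from cultured cells and were not compared with the biopsies described here.

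S100A9, the larger subunit, followed the same cows. Its levels were -3.04, -2.06, -3.13 and -2.91 in the YF, -0.85, -2.48, -3.34 and -2.69 in the OF, and -2.20, -3.72 and -1.10 in the Contemporary cows, in the same order of animals. OF 0233 was again the highest, and Contemporary cow 1128 the lowest, 7.31-fold below it. The second transcript of S100A9 gave nearly the same pattern (r = 0.995 between the transcripts over the 11 cows, as deviations from group means).

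S100A12, which signals through the receptor for advanced glycation end products, had levels of -0.25, 1.06, -0.07 and -0.01 in the YF. Its levels were 1.62, 0.47, -0.41 and 0.50 in the OF, and 1.27, 0.07 and 2.32 in the Contemporary cows. Contemporary cow 1129 was the highest and OF 0245 the lowest, 6.61-fold apart, so the groups overlapped for this member as well.

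**Figure D1:**
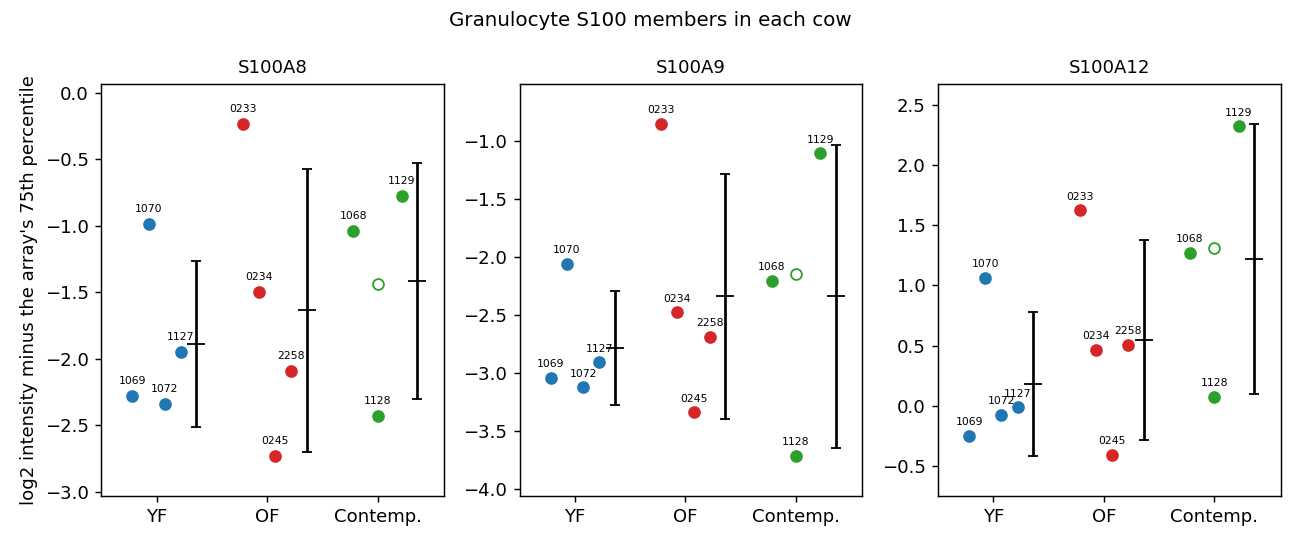
Levels of S100A8, S100A9 and S100A12 (y axis, log2 processed intensity minus the array's 75th percentile) in each cow of the YF, OF and Contemporary (Contemp.) groups. Filled points are cows with their numbers, black bars the mean ± SD of the filled points, and the open point is cow 1111, left out by the authors. OF 0233, YF 1070 and Contemporary cow 1129 are the highest of their group in all 3 panels.

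In OF against YF, all 3 granulocyte members had a higher mean in OF, by 0.25 (SE 0.53) for S100A8, 0.44 (SE 0.51) for S100A9 and 0.36 (SE 0.45) for S100A12, each with an adjusted p of 0.999 (limma). Only OF 0233 was above all YF, and OF 0245 was below all YF, for each of the 3 members. Without OF 0233 the differences were -0.22 for S100A8, -0.05 for S100A9 and 0.01 for S100A12, so the sign of S100A8 and S100A9 rested on that cow. Without OF 0245 they were 0.62, 0.78 and 0.68, without YF 1070 they were 0.55, 0.69 and 0.66, and within slide 2 they were 0.84, 0.97 and 0.99, in the same order. Of 10 granulocyte genes tested besides the members, 6 had a higher mean in OF and 4 a lower one, with a median of 0.12. Of these 10, 8 were well above background on all 12 arrays. Another passed the filter only through the YF arrays, so it was not among the 9 tested in Contemporary cows against OF. The counts include it.

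In Contemporary cows against YF, the differences were 0.47 (SE 0.47) for S100A8, 0.44 (SE 0.57) for S100A9 and 1.04 (SE 0.54) for S100A12, each with an adjusted p of 1 (limma). For S100A12 this is a 2.05-fold higher mean, with 2 of 3 Contemporary cows above all YF and an exact permutation p of 0.114 (two-sided). Without Contemporary cow 1129 its difference was 0.49, and without Contemporary cow 1128 it was 1.61. The 3 Contemporary cows used were all on slide 2, whereas YF 1070 and YF 1072 were on slide 1. With slide as a block, and within slide 2 alone, the S100A12 difference was 1.35. With array weights it was 0.42, and S100A8 and S100A9 then had -0.07 and -0.22. In the same comparison 9 of 9 macrophage and monocyte genes had a higher mean in Contemporary cows, with a median of 0.34, as did 6 of 6 endothelial genes, with a median of 0.41. Of 10 granulocyte genes tested besides the members, 7 had a higher mean and 3 a lower one, with a median of 0.14. These 10 include the gene that passed the filter only through the YF arrays. Of the genes of these lists, 0 passed the adjusted p. Their part in the S100A12 difference was not tested.

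The S100A12 value also depended on the probe. The transcript used has 2 probes, which gave 0.76 and 1.31 for Contemporary cows minus YF, whereas the probes of the second S100A12 transcript, 1 of which holds the coding loop, gave 0.35 and 0.41. The second transcript as a whole gave 0.38 and was not called by FCROS. The deviations of both transcripts from the group means had r = 0.935 over 11 cows. Contemporary cow 1068, above all YF at 1.27 on the transcript used, lay at -1.17 on the second, within the YF range of -1.50 to -0.24.

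In Contemporary cows against OF, the differences were 0.22 (SE 0.64) for S100A8, -0.0017 (SE 0.75) for S100A9 and 0.67 (SE 0.62) for S100A12, with adjusted p from 0.943 to 1 (limma). Of 9 granulocyte genes tested besides the members, 4 had a higher mean in Contemporary cows and 5 a lower one, with a median of -0.03. The Contemporary cows were compared with OF and YF that are also compared with each other, so the 3 comparisons share animals.

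S100A8, S100A9 and S100A12 moved together from cow to cow. For each pair, the levels were taken as deviations from the mean of the cow's group and tested by permuting cows within groups, exactly, over 3456 orders, as part of 39 relations with Benjamini-Hochberg adjustment. S100A9 with S100A8 had r = 0.953 and Spearman's rho = 0.973 (n = 11, exact permutation p = 0.000289, the smallest these orders can give, adjusted p = 0.0113). S100A12 with S100A9 had r = 0.978 and rho = 0.882 (exact permutation p = 0.00174 and 0.00203, adjusted p = 0.017 and 0.0264). S100A12 with S100A8 had r = 0.938 and rho = 0.864 (exact permutation p = 0.00145 and 0.00347, adjusted p = 0.017 and 0.0338).

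Leaving out the 2 cows farthest from the median of the second-named member left r at 0.918 for S100A9 with S100A8 and 0.914 for S100A12 with S100A8 (without OF 0233 and OF 0245), and at 0.965 for S100A12 with S100A9 (without OF 0233 and Contemporary cow 1129). Within slide 2, which held 8 of the 11 arrays, r was 0.951, 0.987 and 0.904 for S100A9 with S100A8, S100A12 with S100A9 and S100A12 with S100A8. Slide 1 held 3 of these arrays, too few for its own value. With fewer orders to permute, all 3 relations missed the threshold within slide 2 (adjusted p = 0.181, exact permutation test). Those of S100A12 with S100A8 and with S100A9 also missed it without YF 1070, OF 0233, OF 0245 or Contemporary cow 1068, 1128 or 1129, with adjusted p from 0.0508 to 0.0902. Of all 18657 transcripts well above background on every array, 0.0161% had an r with S100A8 as high as that of S100A9, counting S100A8 itself and both S100A9 transcripts.

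Outside the family, FCNB, NFE2, CCR1, SLC11A1 and TCEB3 were among the named transcripts that followed these members most closely. FCNB (a ficolin, a soluble pattern recognition protein) had r = 0.905 with S100A8, 0.951 with S100A9 and 0.955 with S100A12 over the 11 cows. NFE2, a transcription factor of blood cells, had r = 0.948 with S100A9 and 0.929 with S100A12. CCR1, a chemokine receptor, had r = 0.884 with S100A8, and SLC11A1, a metal transporter of phagocytes, r = 0.918 with S100A12. TCEB3, a transcription elongation factor subunit, had r = 0.889 with S100A8 and 0.934 with S100A9. These were picked as the 5 highest of 18657 transcripts in each case and carry no test.

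The relation of other granulocyte markers to the 3 members did not pass the test. Of 19 granulocyte genes listed besides the members, 15 had a probe and 8 were well above background on every array, while the cathelicidins CATHL1, CATHL3 and CATHL7 were not well above background on any array. The mean of the 8 genes ranged from -0.57 in YF 1127 to 0.35 in YF 1070, around the mean of all cows. In bulk tissue, fewer cells of a type and less RNA per cell cannot be told apart.

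With that granulocyte level, S100A8 had r = 0.532 (exact permutation p = 0.0663, adjusted p = 0.199) and rho = 0.655. S100A9 had r = 0.535 (exact permutation p = 0.0437, adjusted p = 0.156) and rho = 0.555, and S100A12 had r = 0.606 (exact permutation p = 0.0457, adjusted p = 0.156) and rho = 0.564. None of these passed after adjustment. Without YF 1070 and YF 1127, the cows farthest from the median, r was 0.721, 0.77 and 0.786 for S100A8, S100A9 and S100A12, and within slide 2 it was 0.282, 0.421 and 0.384. The genes of the list were unequal: against S100A9, 6 of 8 had a positive r, with a median of 0.362, from -0.403 for LTF (lactoferrin, also made by uterine epithelium) to 0.891 for CSF3R, the receptor of granulocyte colony-stimulating factor. Of 9 macrophage and monocyte genes, 5 had a positive r, with a median of 0.004, from -0.10 for MSR1 to 0.31 for AIF1.

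**Figure D2:**
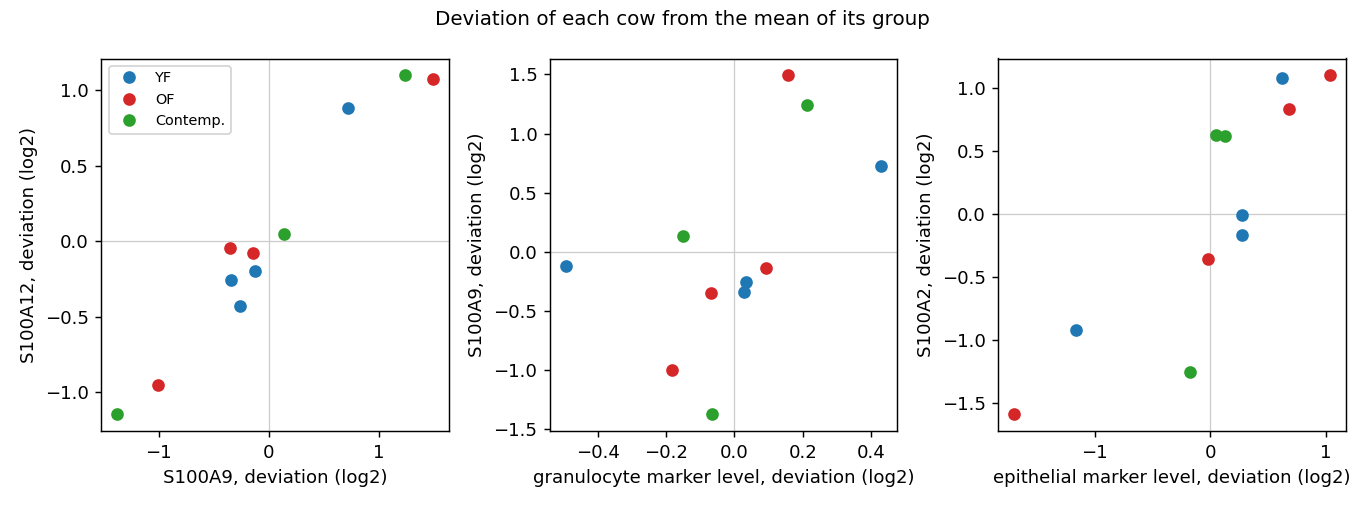
Deviation of each of the 11 cows from the mean of its group, in log2 units, for S100A12 against S100A9 (left), S100A9 against the mean of 8 other granulocyte genes (centre) and S100A2 against the mean of 11 epithelial genes (right). Points lie close to a line on the left (r = 0.978) and on the right (r = 0.853) and scatter more in the centre (r = 0.535).

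The 3 granulocyte genes are also neighbours on the chromosome. Each transcript of S100A8, S100A9 and S100A12 had r of 0.897 or more with the S100A9 transcript used. In the block of S100A1 to S100A4, the transcript used for each member had r with S100A9 of -0.473 for S100A1, -0.198 for S100A14, 0.193 for S100A2 and 0.485 for S100A4. S100A11 and S100A10, neighbours in their own block, had r = -0.482 with each other, and -0.348 without OF 2258.

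**Figure D3:**
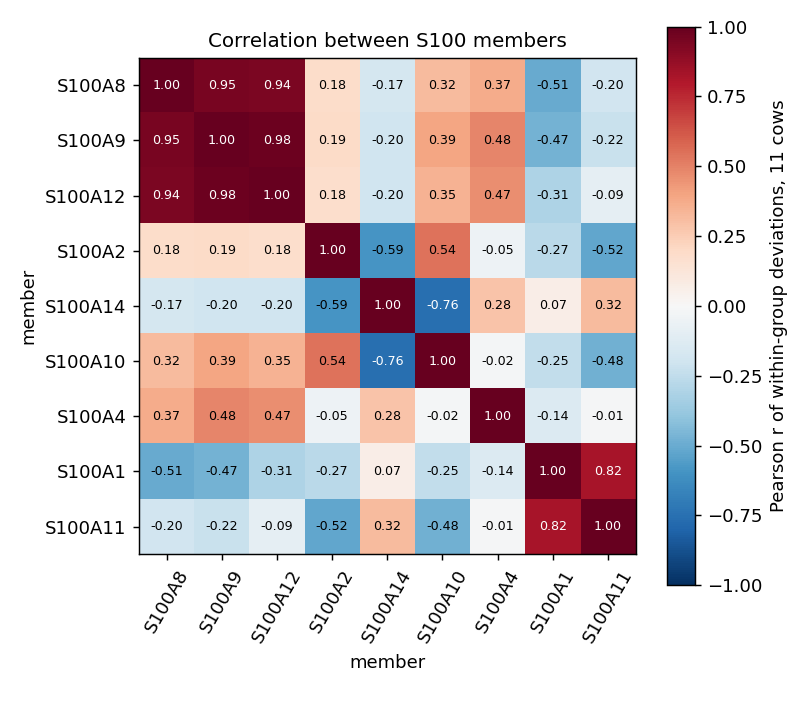
Pearson r between the 9 members measured, over the deviations of 11 cows from their group means (colour and number in each cell, scale from -1 to 1). S100A8, S100A9 and S100A12 form a block with r of 0.94 to 0.98, and outside it the highest value is 0.82, for S100A1 with S100A11, both near background, which is 0.535 without OF 2258.

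Among the epithelial members, S100A2 differed most between cows. S100A2, a member known from basal and stratified epithelia that binds p53, had levels of 1.40, 3.40, 2.15 and 2.31 in YF 1069, 1070, 1072 and 1127. In OF 0233, 0234, 0245 and 2258 it had levels of 2.07, 0.88, 2.34 and -0.35, and in Contemporary cows 1068, 1128 and 1129 of 0.19, 2.07 and 2.07. The lowest cow, OF 2258, was 13.5-fold below the highest, YF 1070.

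In OF the mean of S100A2 was 1.23 ± 1.23 (SD, n = 4), against 2.32 ± 0.83 in YF (SD, n = 4). The difference was -1.08 (SE 0.64), a 0.473-fold level, with an adjusted p of 0.999 (limma) and an exact permutation p of 0.2 (two-sided). OF 0234 and OF 2258 lay below all YF and the other two OF within their range. The 4 probes gave between -1.10 and -1.06, so the probes differed little. Without OF 2258 the difference was -0.55, and without YF 1070 it was -0.72. It was -0.79 with slide as a block and -0.99 within slide 2, and FCROS, which gave a log2 fold change of -0.93, called it. Beside it, 9 of 9 smooth muscle genes had a higher mean in OF (median 1.96), as did 6 of 6 stratified epithelial genes (median 0.41). Lower means were seen for 10 of 10 stromal (median -0.27) and 8 of 11 epithelial genes (median -0.29). Of these genes, 0 passed the adjusted p. These values include OF 2258. The mean of the 11 epithelial genes, around that of all cows, was 0.51, -0.19, 0.86 and -1.87 in OF 0233, 0234, 0245 and 2258. In YF 1069, 1070, 1072 and 1127 it was -1.11, 0.68, 0.33 and 0.33. The smooth muscle level was -0.99, 2.46, -0.21 and 4.09 in the OF and -0.59, -1.06, 0.12 and -1.40 in the YF.

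In Contemporary cows the mean was 1.45 ± 1.08 (SD, n = 3). The difference from YF was -0.87 (SE 0.59, adjusted p = 1, limma) and from OF 0.21 (SE 0.75, adjusted p = 0.987, limma). Contemporary cow 1068 alone lay below all YF, and without it the difference from YF was -0.25. With slide as a block, and within slide 2 alone, the difference from YF was -0.41.

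S100A2 followed the level of the epithelial markers from cow to cow. The epithelial level, the mean of 11 genes such as EPCAM and KRT18 that were well above background on all arrays, ranged from -1.87 in OF 2258 and -1.11 in YF 1069 to 0.86 in OF 0245. S100A2 had r = 0.853 and rho = 0.891 with it (n = 11, exact permutation p = 0.00116 and 0.00174, adjusted p = 0.017 and 0.0264), r = 0.801 without YF 1069 and OF 2258, and r = 0.804 within slide 2. It missed the threshold within slide 2 (adjusted p = 0.181, exact permutation test) and without YF 1070, OF 0233, OF 0245 or Contemporary cow 1068, with adjusted p from 0.0508 to 0.101. Of all 18657 transcripts, 6.15% had an r with the epithelial level at least as high. With the smooth muscle level, S100A2 had r = -0.756 (exact permutation p = 0.0191, adjusted p = 0.148), and r = -0.602 without OF 0233 and OF 2258. The part of these marker levels in the difference between OF and YF was not tested. The named transcripts most like S100A2 were IFI6 (an interferon-induced gene, r = 0.978), PBX4 (r = 0.97), TAP1 (the antigen peptide transporter, r = 0.966), C1orf85 (r = 0.962) and VCP (r = 0.961).

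S100A14, a member known from simple and stratified epithelia, varied less. Its levels ranged from 1.12 to 2.31 in YF, from 1.03 to 1.85 in OF and from 1.55 to 1.74 in Contemporary cows, and YF 1069 was the highest. The difference was -0.08 (SE 0.31) in OF against YF, 0.16 (SE 0.30) in Contemporary cows against YF and 0.25 (SE 0.25) in Contemporary cows against OF, with adjusted p of 0.999, 1 and 0.95 (limma). Against the epithelial level its r was -0.751 (exact permutation p = 0.0385, adjusted p = 0.156), and against the stromal level, the mean of 10 genes such as COL1A1 and DCN, it was 0.886 (exact permutation p = 0.0266, adjusted p = 0.148), neither passing after adjustment. Without YF 1069 and OF 2258 these were -0.722 and 0.632. Of all 18657 transcripts, 11% had an r with the epithelial level at least as low. With the stromal level, 0.729% had an r at least as high. S100A14 thus did not rise with the epithelial markers in these cows, although it is known from epithelia. The named transcripts most like it included FBN2 (fibrillin 2, r = 0.973), with CTNNBL1 the highest (r = 0.979).

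**Figure D4:**
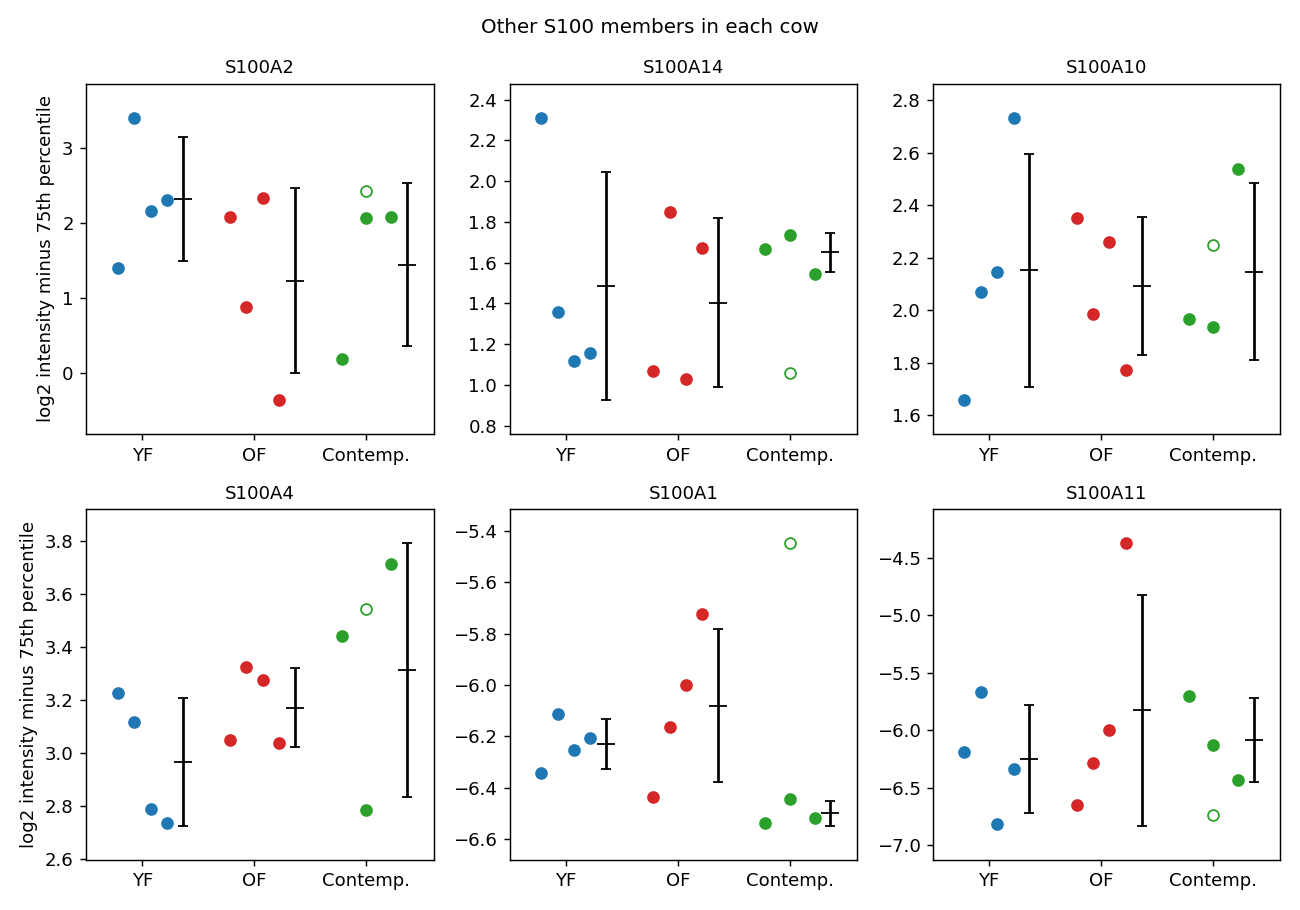
Levels of the 6 other members measured (y axes, log2 processed intensity minus the array's 75th percentile, each panel with its own range) in each cow of the YF, OF and Contemporary (Contemp.) groups. Filled points are cows, black bars the mean ± SD of the filled points, and the open point is cow 1111, left out by the authors. S100A2 spans 3.76 log2 units, S100A4 0.98.

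The members that bind annexins and myosin inside many cell types varied less between cows than S100A2. S100A10, which has lost calcium binding and pairs with annexin A2, ranged from 1.66 in YF 1069 to 2.74 in YF 1127. Its differences were -0.06 (SE 0.24), -0.01 (SE 0.28) and 0.05 (SE 0.23) in OF against YF, Contemporary cows against YF and Contemporary cows against OF, with adjusted p of 0.999, 1 and 0.988 (limma). With the stromal level it had r = -0.784 (exact permutation p = 0.0231, adjusted p = 0.148), and r = -0.561 without YF 1069 and OF 2258. With the epithelial level it had r = 0.627 (exact permutation p = 0.048, adjusted p = 0.156), and r = 0.171 without the same cows. With the smooth muscle level r was -0.546 (exact permutation p = 0.0365, adjusted p = 0.156). None of these passed after adjustment.

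S100A4, which binds non-muscle myosin and is known from fibroblasts and leukocytes, had levels of 3.23, 3.12, 2.79 and 2.74 in the YF. Its levels were 3.05, 3.32, 3.27 and 3.04 in the OF, and 3.44, 2.78 and 3.71 in the Contemporary cows. The OF mean was 0.20 higher than that of YF (SE 0.16, adjusted p = 0.999, limma), with 2 of 4 OF above all YF, and the mean of Contemporary cows 0.35 higher (SE 0.25, adjusted p = 1, limma). With the stromal level its r was 0.29 (exact permutation p = 0.351, adjusted p = 0.647).

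S100A1 and S100A11 were measured near background. S100A1, a regulator of the calcium pump and ryanodine receptor in muscle, had mean processed intensities of 49 and 43.3 for its transcripts, each with 1 of 2 probes not well above background on any array. The transcripts did not follow each other (r = -0.188 over 11 cows). For the transcript used, all 3 Contemporary cows, at -6.54 to -6.44, lay below all YF, at -6.34 to -6.11, and OF 0233, at -6.44, the lowest OF, lay just above the highest of them. The second transcript had a difference of -0.60 from OF (unadjusted p = 0.0409, adjusted p = 0.912, limma).

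Thus 1 of 9 members did not overlap between Contemporary cows and YF, and 1 of 9 between Contemporary cows and OF, beside 3.83% and 5.79% of all transcripts tested. In OF against YF, 0 of 9 members and 1.53% of all transcripts did not overlap. The S100A1 differences were -0.27 (SE 0.14, adjusted p = 1, limma) from YF and -0.42 (SE 0.20, adjusted p = 0.912, limma) from OF. With cow 1111 included, the first was -0.0069 and the second -0.16. Cow 1111, at -5.45, lay above all YF and all OF, so that neither pair of groups was then apart.

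S100A11, a partner of annexin A1, had a mean processed intensity of 23.4. Its 4 probes were well above background on 1, 3, 11 and 12 of the 12 arrays. OF 2258 had a level of -4.37, and the other 10 cows had levels of -6.82 to -5.67. The OF minus YF difference of 0.43 (SE 0.48, adjusted p = 0.999, limma) became -0.06 without OF 2258.

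**Figure D5:**
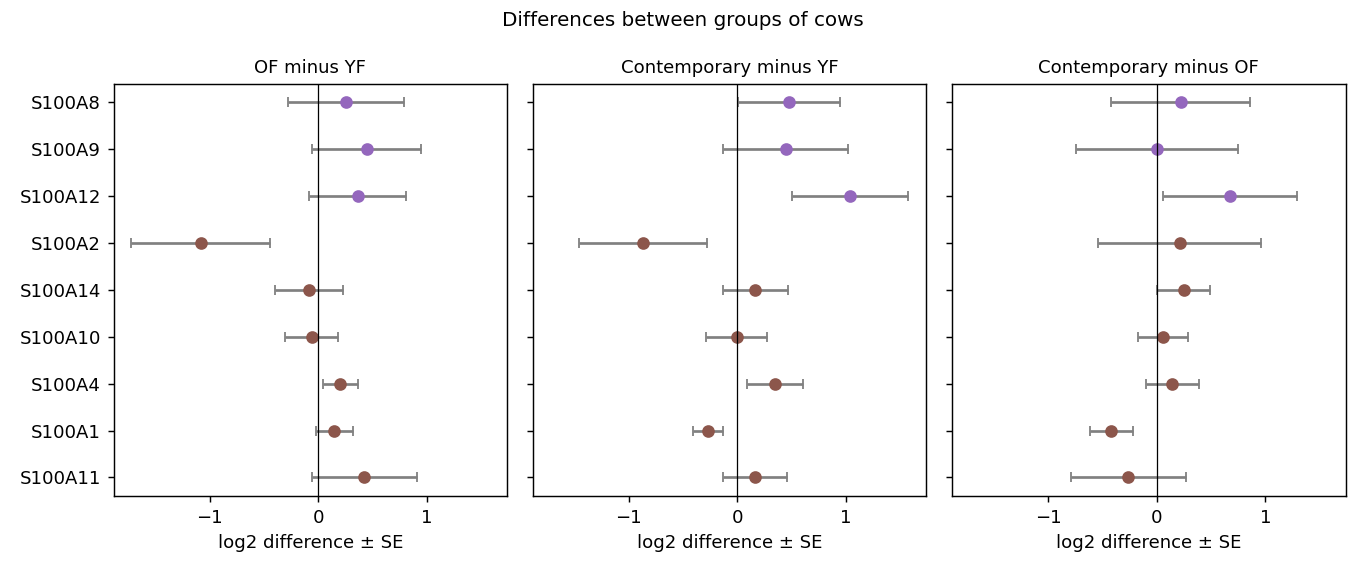
Log2 difference ± SE (limma, x axis) of the 9 members measured in OF minus YF, Contemporary cows minus YF and Contemporary cows minus OF. Purple points are S100A8, S100A9 and S100A12, brown points the other members, and the vertical line marks 0. S100A2 in OF minus YF (-1.08) and S100A12 in Contemporary cows minus YF (1.04) lie farthest from 0, and no adjusted p was at or under 0.05.

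Set side by side, the granulocyte members had a median difference of 0.36 in OF against YF, 0.47 in Contemporary cows against YF and 0.22 in Contemporary cows against OF. The 6 other members had medians of 0.04, 0.08 and 0.10, and all transcripts tested 0.01, -0.02 and -0.04. S100A8, S100A9 and S100A12 moved together from cow to cow, so their median does not rest on separate observations. Without OF 0233 their differences in OF against YF were -0.22, -0.05 and 0.01. The median SD between cows of a group was 0.32 over all 18657 transcripts well above background on every array. It was 0.88 for S100A8, 0.97 for S100A9, 0.84 for S100A12 and 1.06 for S100A2, higher than in 93.5%, 95.3%, 92.8% and 96.5% of these transcripts. For S100A4, S100A10 and S100A14 it was 0.30, 0.36 and 0.43, higher than in 44%, 57.1% and 67.8%. Without OF 2258 it was 0.92, 1.03, 0.90 and 0.89 for S100A8, S100A9, S100A12 and S100A2.

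Of 11 other S100 genes listed, 8 had a probe and 6 were tested, with 0 past the adjusted p in any comparison. In OF against YF, 3 were higher and 3 lower, from -0.44 for S100A3 to 0.57 for S100G, the calbindin of intestine and uterus, with a median of 0.04. OF 2258 was the lowest cow for S100A3. In Contemporary cows against YF, 5 were higher and 1 lower, from -0.23 for S100B to 0.47 for S100A16. In Contemporary cows against OF, 4 were higher and 2 lower, from -0.21 for S100B to 0.53 for S100A3.

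The receptors and partners of S100 proteins had differences of both signs, none past the adjusted p. Of 7 receptors tested, such as TLR4 and AGER, 4 were higher and 3 lower in OF than in YF, with a median of 0.09, from -0.25 for ALCAM to 0.38 for MCAM. Of 19 intracellular partners tested, 11 were higher and 8 lower in OF, with a median of 0.03, from -0.99 for PLAT, tissue plasminogen activator, to 0.65 for TPM1, a tropomyosin that smooth muscle also makes. Of the inflammatory and antimicrobial genes, 9 were tested in OF against YF, 3 higher and 6 lower, with a median of -0.20, from -1.10 for PTX3 to 0.87 for IL1RN. In Contemporary cows against YF, 11 were tested, 9 higher and 2 lower, with a median of 0.56. The genes tested here but not in OF against YF, among them CXCL2 at 1.44, passed the filter only through the Contemporary arrays. The filter thus favours Contemporary cows in that count and median. Of these lists, 0 genes passed the adjusted p in any comparison. OF 2258 was the lowest of the 11 cows for ALCAM and PLAT, and the highest for MCAM, TPM1 and IL1RN. Differences of these genes without it are not given here.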

How the data were processed

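Endometrial RNA of 12 cows was measured on 12 arrays of 2 slides. The authors deposited, per array, the Cy-3 intensity of each spot from Feature Extraction 10.7.3.1, background-corrected and not normalized between arrays, with flags such as well above background. Here, log2 of the processed intensity minus the 75th percentile of the array was used. Control spots (1319) and 66 probes with outlier flags were left out, which kept 61333 probes. Probes were averaged per transcript (26323), and a gene's value is that of its brightest transcript. A transcript was tested if a probe was well above background on every array of a group compared. Only the groups compared entered a fit (limma 3.58.1, R 4.3.3, two-sided). FCROS was coded from its description (trim 0.25, f-values beyond 0.025 and 0.975, fold change 1.5). Marker levels average listed genes well above background on all arrays, without the members. The tests were tried first on simulated data, with the spread between animals capped at its 75th percentile over transcripts. That trial therefore does not show how they perform for more variable members such as S100A2 and S100A9. The members, lists and tests were chosen with earlier results of these data known. Named genes are the members, list extremes, and the 5 transcripts most like a member (most correlated over 11 cows). The number of arrays limits the precision. Alternatives were quantile normalization, normexp (offset 50), median centring, single probes, no filter, slide, 1 fit, array weights, cow 1111, FCROS and each animal left out. For the relations, leaving out each animal and slide 2 alone were chosen after seeing the data.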

Additional observations from a re-analysis of the deposited data

Results flagged for a closer look

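In cow 1111, the Contemporary cow that the authors left out, S100A1 had a level of -5.45, above the highest of the 11 cows used (-5.72, OF 2258). This signal lies in an array that no comparison used, and S100A1 was near background. Among the 18 groups of 4 looked at (9 members in OF and in YF), 0 had a cow far enough from the others to be flagged by Dixon's test of the gap to the nearest cow.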

How the results depend on the processing

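Of 540 values of the 27 member differences under alternatives, 490 kept their sign and stayed uncalled, 48 changed sign and 2 became called, both by FCROS. Under the limma alternatives the smallest adjusted p of a member was 0.306. The number of members past the threshold was 0 throughout, apart from FCROS, which called 1 in OF against YF (S100A2, -0.93) and 1 in Contemporary cows against YF (S100A12, 1.21).

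With array weights, S100A14 in OF minus YF turned to 0.37. In Contemporary cows minus YF, array weights turned S100A8 to -0.075 and S100A9 to -0.22, slide as a block and slide 2 alone each turned S100A14 to -0.084, and S100A10 turned to 0.038 with median centring, 0.014 in the highest probe and 0.020 with cow 1111. In Contemporary cows minus OF, S100A9 turned to 0.0082 with quantile normalization, 0.0088 with normexp, 0.027 with median centring and 0.033 with FCROS, 0.11 in the brightest and highest probe and 0.048 with cow 1111. There, S100A11 turned to 0.17 in the brightest and highest probe, 0.050 in the lowest and 0.060 with array weights. S100A8 turned to -0.14 with the slide as a block or slide 2 alone and to -0.45 with array weights, which turned S100A4 to -0.23. The cause was not tested.

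With each animal left out in turn, the differences whose sign changed ranged as follows. In OF minus YF, S100A8 ran from -0.22 to 0.62, S100A9 from -0.053 to 0.78, S100A10 from -0.22 to 0.13, S100A11 from -0.059 to 0.70 and S100A14 from -0.23 to 0.19. In Contemporary cows minus YF, S100A9 ran from -0.18 to 1.13, S100A10 from -0.20 to 0.19 and S100A11 from -0.030 to 0.36. In Contemporary cows minus OF, S100A2 ran from -0.32 to 0.84, S100A4 from -0.059 to 0.41, S100A8 from -0.14 to 0.73, S100A9 from -0.62 to 0.69, S100A10 from -0.14 to 0.16 and S100A11 from -0.54 to 0.22.

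Of the 39 relations, 4 passed, and 4 also with cow 1111, median centring and quantile normalization. Leaving out 1 animal gave from 1 to 4 and slide 2 alone gave 0, with fewer orders to permute in each case. The lower counts of 1 came without YF 1070, OF 0233, OF 0245 or Contemporary cow 1068, and of 2 without Contemporary cow 1128 or 1129. The relations lost in these were those of S100A12 with S100A8 and with S100A9 in all 6, and of S100A2 with the epithelial level in the first 4. With 1 animal left out, r ran from 0.919 to 0.986 between the granulocyte members and from 0.758 to 0.946 for S100A2 with the epithelial level. Intensities near background limit S100A1 and S100A11. No paired analysis was possible because the groups hold different animals.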

Other observations

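The other members in cow 1111 had levels of 2.42 for S100A2, 3.54 for S100A4, -1.44 for S100A8, -2.14 for S100A9, 2.25 for S100A10, -6.74 for S100A11, 1.31 for S100A12 and 1.06 for S100A14, each within the range of the 11 cows used. With this cow included, S100A12 in Contemporary cows minus YF was 1.06, and S100A2 was -0.63.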
